A study of Mus musculus with 7 samples.

Results

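Primary, or azurophil, granules are the first granules that a developing neutrophil makes, and 6 of the genes linked to them were followed here through every count table of a study of mouse neutrophils. Mpo encodes myeloperoxidase, the enzyme that makes hypochlorous acid from hydrogen peroxide and chloride. Elane, Prtn3 and Ctsg encode the serine proteases neutrophil elastase, proteinase 3 and cathepsin G, and Prss57 encodes a further serine protease of the same granules. Ms4a3 is not a granule protein but a membrane protein of early granulocyte and monocyte progenitors, and was taken along as a marker of that stage. The genes were chosen by name, 6 of the 28719 gene symbols found in the 7 tables together.

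Neutrophils were sorted as live CD11b+ Ly6G+ cells, negative for propidium iodide, from male C57BL/6J mice, and their 3′ transcript ends were counted in droplets with unique molecular identifiers (UMIs), so that 1 UMI stands for 1 captured molecule whatever the length of the gene. Healthy peripheral blood, bone marrow and spleen gave 1 library each in each of 2 runs, and by the methods of the study every library pooled cells of 3 mice, aged 6 weeks in run 1 and 8 weeks in run 2, with the tissues of a run taken from the same mice. Age and run therefore cannot be told apart, and the pool of mice was the replicate (n = 2 per tissue). A seventh library held 5 groups of 8-week-old males marked with hashtag antibodies: healthy blood, blood and joint lavage 7 days after the first of 2 intraperitoneal injections of 150 µL of arthritogenic K/BxN serum (days 0 and 2), bronchoalveolar lavage 3 h after 25 ng of intranasal IL-1β, and peritoneal lavage 3 h after 25 ng of intraperitoneal IL-1β. Each of these conditions is a single pool, with no replicate.

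The libraries held 1219 to 4856 cells and 1968514 to 16390439 UMIs. In healthy tissue, cells were kept as neutrophils when Cd79a, Cd79b, Cd3e and Nkg7 together had under 3 UMIs and S100a8 and S100a9 made up at least 3% of UMIs, which left 44.9% to 93.9% of the cells of a library, with medians of 769 to 2678 UMIs per cell. The 12 neutrophil markers checked were all detected in each library and made up 20.6% to 49.7% of the kept UMIs. S100a8 and S100a9 are among these markers, so this share follows in part from the rule by which cells were kept. Erythroid markers took 3.07% of the kept UMIs in blood of run 2 and 0.0253% to 0.0937% elsewhere. Between 0 and 36 cell barcodes were shared by a pair of libraries. The tables of run 1 list only genes with at least 11 UMIs in that library, so an unlisted gene had between 0 and 10. Levels are given as counts per 1e6 UMIs (CPM) with exact 95% Poisson intervals, which cover counting error only.

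Azurophil granules are loaded at the promyelocyte stage, when the proteases are made as inactive precursors, cut to their active form by cathepsin C and held on the proteoglycan serglycin. Transcription of these genes is shut down as the cell goes on to make the secondary granules that hold lactoferrin and cathelicidin, so that blood neutrophils carry the proteins but little of the message. The transcription factors PU.1, C/EBPα, C/EBPε, MYB and RUNX1 are known regulators of this stage.

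The members lie on 4 chromosomes (GRCm38, GENCODE annotation). Elane (chr10:79886247-79888215, plus strand) starts 3072 bases past the end of Prtn3 (chr10:79874476-79883174, plus strand), and Prss57 lies on the same chromosome (chr10:79781474-79790961, minus strand). Mpo is at chr11:87793581-87804413 on the plus strand, Ctsg at chr14:56099881-56102574 and Ms4a3 at chr19:11629496-11640851, both on the minus strand. Prtn3 overlaps Plppr3, Prss57 overlaps Fstl3 and Mpo overlaps the antisense RNA Gm11505, each on the opposite strand. Whether strand was used in counting is not given in the sources used here, so reads of such partners cannot be told apart. In their annotated transcripts, Elane, Prtn3, Ctsg and Prss57 shared no word of 31 bases with another gene, while Mpo shared 16 of 3451 words and Ms4a3 15 of 1880.

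Promoters are shown because the members differ below in where their messages were found. The 150 bases before the start site of 5 of the 6 members follow, written 5′ to 3′ along the gene, from RefSeq on GRCm38.p6 (Mpo chr11:87793634-87793783, Elane chr10:79886162-79886311, Prtn3 chr10:79879517-79879666, Ctsg chr14:56102575-56102724 on the minus strand and Ms4a3 chr19:11640852-11641001 on the minus strand). The RefSeq starts of Mpo, Elane and Prtn3 lie inside the longer GENCODE genes given above. Capitals mark matches, on either strand, to GAGGAA (PU-box), TTNNGNAA (C/EBP), AACNG (MYB) and TGTGGT (RUNX).
Mpo: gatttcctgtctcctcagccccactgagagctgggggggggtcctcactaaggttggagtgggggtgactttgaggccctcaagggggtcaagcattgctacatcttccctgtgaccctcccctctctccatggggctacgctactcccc
Elane: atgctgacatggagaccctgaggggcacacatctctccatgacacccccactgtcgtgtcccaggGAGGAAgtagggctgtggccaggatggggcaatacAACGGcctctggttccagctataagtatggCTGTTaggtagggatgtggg
Prtn3: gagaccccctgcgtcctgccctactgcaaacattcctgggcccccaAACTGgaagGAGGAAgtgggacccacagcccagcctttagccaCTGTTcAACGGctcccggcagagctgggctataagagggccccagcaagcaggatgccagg
Ctsg: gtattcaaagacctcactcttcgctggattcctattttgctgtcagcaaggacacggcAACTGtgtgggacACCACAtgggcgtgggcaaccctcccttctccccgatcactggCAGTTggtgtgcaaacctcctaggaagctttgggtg
Ms4a3: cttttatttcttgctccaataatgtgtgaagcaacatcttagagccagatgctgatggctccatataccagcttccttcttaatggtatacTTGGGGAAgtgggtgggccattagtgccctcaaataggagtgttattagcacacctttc

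In these windows, Elane and Prtn3 each held 1 PU-box, at 85 to 80 and 95 to 90 bases before the start, where 14.5% of all 32851 promoters of that length hold one. MYB letters occurred 2 times in Elane, 3 times in Prtn3 and 2 times in Ctsg, and in 55.1% of all promoters. The RUNX letters were found in Ctsg, as in 8.4% of all promoters, and the C/EBP letters in Ms4a3, at 59 to 52 bases before the start, as in 22.7%. Mpo held none of the 4 within these 150 bases. No motif overlapped another, and a match is a description of letters and not of binding.

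Of the members, only Prss57 was listed in all 7 tables. In kept neutrophils, Mpo had 110 UMIs in bone marrow of run 1, or 27.0 CPM (22.2 to 32.6), and 26 UMIs in run 2, or 2.93 CPM. It was not listed in blood or spleen of run 1, had 1 UMI in blood of run 2 and 0 in spleen of run 2. The marrow levels of Mpo thus lay above those of the other tissues in each run, but the marrow libraries differed from each other by more than their counting error.

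Elane was counted 158 times in marrow of run 1 (38.8 CPM) and 40 times in run 2 (4.50 CPM), was not listed in blood and spleen of run 1, and had 0 UMIs in both in run 2. Ctsg followed with 50 UMIs (12.3 CPM) and 12 UMIs (1.35 CPM) in marrow, no listing in the other tissues of run 1 and 0 UMIs in those of run 2. Against blood of the same run, the bounds on the marrow to blood ratio were at least 5.27 and 5.14 for Elane and at least 1.67 and 1.54 for Ctsg. They take the 10 UMIs an unlisted gene may have in run 1 and 3 UMIs for a count of 0 in run 2. These bounds, and the others given as at least, leave out the counting error of the marrow count. With 12 marrow UMIs, an excess of Ctsg over blood of run 2 was thus not shown, and its bound against spleen of run 2 was 0.832. On the same basis Mpo was at least 3.67-fold higher in run 1, and in run 2 its ratio was 10.0 (1.65 to 411). Of the run 1 UMIs, a large part lay in 2 of the 1194 kept cells, which belong to the protease-rich cells described below. Without them run 1 had 63 UMIs of Elane, 57 of Mpo and 21 of Ctsg, and the bounds fell to at least 2.11-fold for Elane and 1.90-fold for Mpo, while that for Ctsg was lost (0.702).

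Prtn3 and Prss57 did not share this pattern. Prtn3 had 71 UMIs (17.4 CPM) and 86 UMIs (9.68 CPM) in marrow, but also 45 UMIs (13.1 CPM) in blood and 17 UMIs (9.20 CPM) in spleen of run 2, with no listing in blood and spleen of run 1. Its marrow to blood ratio was at least 2.37 in run 1 (at least 1.27 without the 2 protease-rich cells) and 0.737 (0.508 to 1.08) in run 2. Prss57 had 57 and 73 UMIs in marrow (14.0 and 8.22 CPM), 13 and 56 in blood (9.58 and 16.4 CPM) and 23 and 27 in spleen (8.59 and 14.6 CPM). The tissues overlapped for Prss57: its marrow to blood ratio was 1.46 (0.790 to 2.91) in run 1 and 0.502 (0.350 to 0.725) in run 2. Healthy blood of the inflammation library had 1.78 CPM of Prtn3 (0.215 to 6.42) and 2.67 CPM of Prss57 (0.550 to 7.79). Both lay below blood of run 2. By the methods of the study that library used a later droplet chemistry, and the part of this was not tested.

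Ms4a3 was counted 114 times in marrow of run 1 and 183 times in run 2 (28.0 and 20.6 CPM). It had 11 and 4 UMIs in spleen (4.11 and 2.16 CPM), was not listed in blood of run 1 and had 0 UMIs in blood of run 2. Marrow was at least 3.80-fold and at least 23.5-fold higher than blood, and exceeded spleen by ratios of 6.82 (3.67 to 14.0) and 9.52 (3.66 to 35.3). In order of the marrow level, run 1 gave Elane, Ms4a3, Mpo, Prtn3, Prss57 and Ctsg, and run 2 gave Ms4a3, Prtn3, Prss57, Elane, Mpo and Ctsg. Without the 2 protease-rich cells the order of run 1 was Ms4a3 (26.1 CPM), Elane (15.5), Mpo (14.0), Prss57 (13.5), Prtn3 (9.36) and Ctsg (5.17). With all kept cells, the counting intervals of neighbours in this order overlapped, apart from Mpo and Prtn3 in run 1 and, in run 2, Ms4a3 and Prtn3 and also Prss57 and Elane. The runs differed in age of the mice, in depth, in the genes listed and, by the methods of the study, in the version of Cell Ranger. The part of any of these in the lower run 2 levels of Mpo, Elane and Ctsg was not tested.

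**Figure D1:**
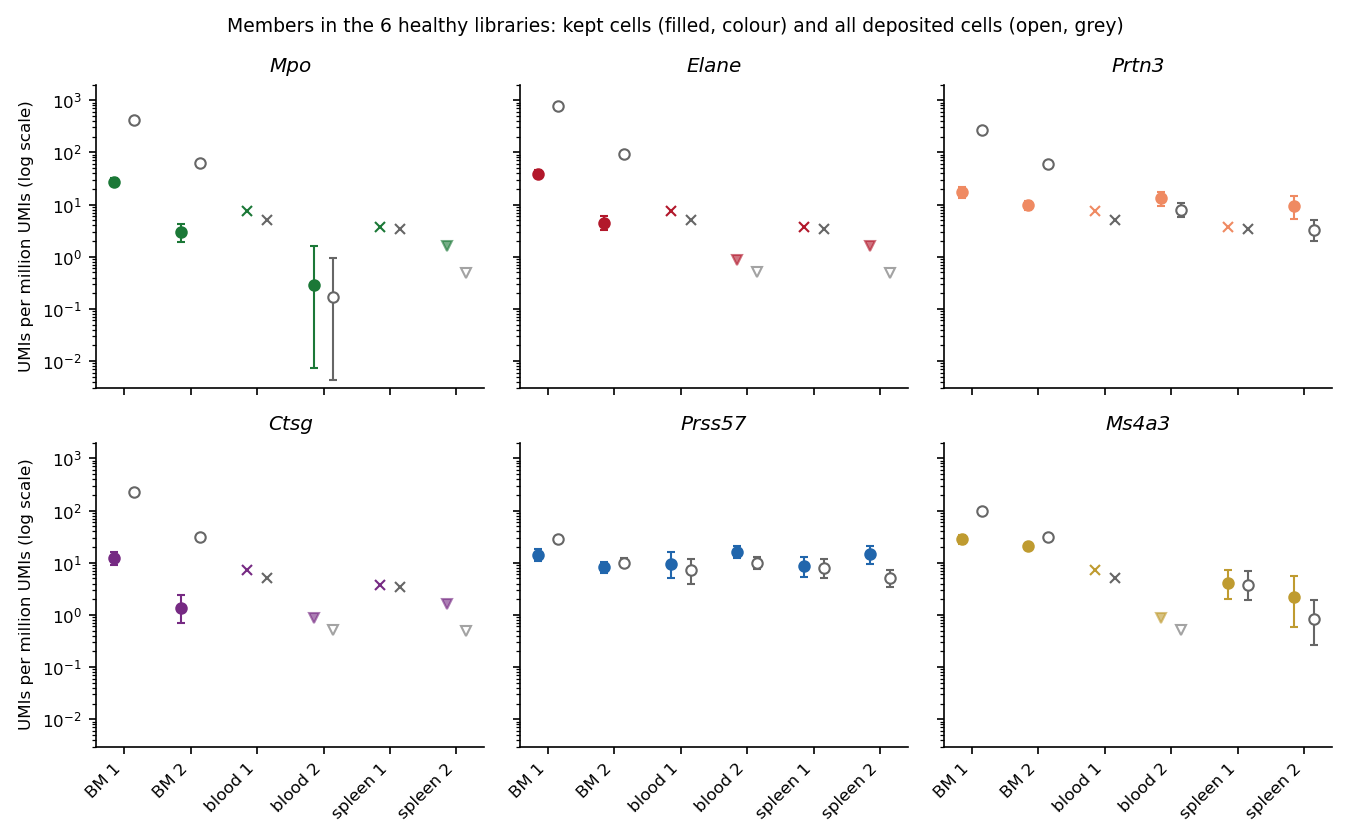
Levels of the 6 members in each healthy library on a log scale (CPM, exact 95% Poisson intervals). Filled points are kept neutrophils, open grey points all deposited cells, triangles a count of 0 drawn at 3 UMIs and crosses a gene not listed in run 1, drawn at 10 UMIs. Mpo, Elane and Ctsg are counted almost only in bone marrow, where all deposited cells lie well above the kept ones (760 against 38.8 CPM for Elane in run 1), while Prss57 lies between 8.22 and 16.4 CPM in kept cells of all 6 libraries.

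Tissues were compared on UMIs summed over the kept cells of a library, with the run as a block, by edgeR's quasi-likelihood test at an FDR of 0.05 over all 7617 genes tested. Of the members, 4 passed the filter on low counts and Mpo and Ctsg did not. Elane and Ms4a3 passed only through the marrow libraries and so had to differ. Against blood, Elane (edgeR FDR 0.00361) and Ms4a3 (edgeR FDR 0.00140) were called higher in marrow, where 11.3% of all genes were called higher and 12% lower. Prtn3 (log2 1.36, SE 1.02, edgeR FDR 0.372) and Prss57 (log2 -0.03, SE 0.38, edgeR FDR 0.966) were not called.

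Against spleen, marrow was again called higher for Elane and Ms4a3 (edgeR FDR 0.0157 for each), in a comparison that called 0.42% of all genes higher and 2.39% lower. For Ms4a3 the log2 difference was 3.08 (SE 0.37), for Prtn3 it was 2.21 (SE 1.11, edgeR FDR 0.352) and for Prss57 0.13 (SE 0.39, edgeR FDR 0.905). No member was called between spleen and blood, where edgeR called 0.0525% of all genes higher and 0.0656% lower (9 genes, and 850 at an unadjusted p under 0.05), and where Ms4a3 had an edgeR FDR of 0.204. The 3 comparisons share their libraries and are not independent of each other.

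Several of these calls changed with the libraries or cells used. Without bone marrow of run 1, edgeR's FDR for Elane was 0.449 against blood and 0.725 against spleen (fitted log2 7.22 for each). Without blood of run 1 it was 0.051 against blood (fitted log2 7.37). Each of these fits leaves 1 library in a group, which is assumed to vary like the other groups, and fitted values of a gene at 0 in the other tissue depend on the prior count. The call for Elane against spleen was also lost without the 2 protease-rich kept cells described below (FDR 0.089, fitted log2 8.31), whereas against blood it was kept (FDR 0.024). For Ms4a3 the call against spleen was lost without cycling cells (log2 2.37, SE 0.97, edgeR FDR 0.348) and under a cell quality filter (log2 2.20, edgeR FDR 0.136). It was also lost without the floor on S100a8 and S100a9 (log2 3.54, edgeR FDR 0.230), where the difference was not smaller than the 3.08 of the main fit. When all deposited cells were used, the levels of Elane in marrow were 760 and 91.8 CPM, and yet edgeR called no gene at all between marrow and blood, with an FDR of 0.0827 for Mpo, Elane, Ctsg and Ms4a3 alike and 0.281 for Prtn3.

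Most of the message of Mpo, Elane, Prtn3 and Ctsg lay outside the kept cells. For Prss57 and Ms4a3 the shares outside were 56.8% and 75.5% in run 1, but 28.4% and 41.0% in run 2. Over all deposited cells, marrow of run 1 held 1980 UMIs of Mpo, 3576 of Elane, 1283 of Prtn3 and 1048 of Ctsg, and marrow of run 2 held 633, 928, 594 and 308. Of the UMIs of these 4 genes together, 95.1% and 93.3% (runs 1 and 2) came from cells that the filters had removed. Most of these UMIs were in cells with Nkg7: 20 cells in run 1 and 35 in run 2 reached 3 UMIs of the lymphoid genes only when Nkg7 was counted among them, and these held 92.3% and 84.5% of the 4 genes' UMIs. Nkg7 encodes a granule membrane protein of T and natural killer cells, and of 8 other T or natural killer cell markers none had a UMI in the protease-rich cells of run 2 described below. The table of marrow of run 1 lists only 1 of the 8, which had no UMI in the protease-rich cells there, so that the others could not be looked for. If Nkg7 was not used to remove cells, edgeR called 4 members higher in marrow against blood and against spleen (Mpo, Elane, Ctsg and Ms4a3) in place of 2, in fits that called 11.3% and 0.636% of 7700 genes higher. All 4 passed the filter on low counts only through marrow and so had to differ.

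The message was also held by very few cells. In marrow of run 1, 183 of 1271 cells had a UMI of the 4 genes, 139 of them a single UMI, and in run 2 it was 168 of 3823 cells, 124 of them with a single UMI. A limit of 20 UMIs of Mpo, Elane, Prtn3 and Ctsg together, set after the values were seen, separated 18 cells in run 1 (1.42% of cells, exact binomial interval 0.841% to 2.23%) and 12 in run 2 (0.314%, 0.162% to 0.548%), called protease-rich cells here. The cells nearest to the limit had 20 UMIs inside and 12 outside in run 1, and 24 and 17 in run 2. Blood and spleen of run 2 held none, with exact upper limits of 0.0792% and 0.0847% for cells that reach 20 UMIs. Kept cells there had medians of 824 and 769 UMIs, at which a cell with the 0.231% of the lowest marrow cell would not reach the limit, so shallow cells of this kind could have been missed. In blood and spleen of run 1 the 4 genes are not listed and may have up to 10 UMIs each, so such cells could not be looked for there.

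Together these cells held 97.2% and 89.7% of the marrow UMIs of the 4 genes. By gene the share was 96.7% and 94.2% for Mpo, 98.1% and 93.9% for Elane, 97.6% and 93.8% for Ctsg, and 95.2% and 76.3% for Prtn3. It was lower for Ms4a3 (75.5% and 30.3%) and for Prss57 (55.3% and 21.6%). Of the 18 and 12 cells, 14 and 11 had at least 3 UMIs of Nkg7, 9 and 8 lay under the floor on S100a8 and S100a9, and 2 and 0 were kept. The cells were chosen on the sum of Mpo, Elane, Prtn3 and Ctsg, so that higher shares of these 4 than of Ms4a3 and Prss57 follow in part from the choice.

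**Figure D2:**
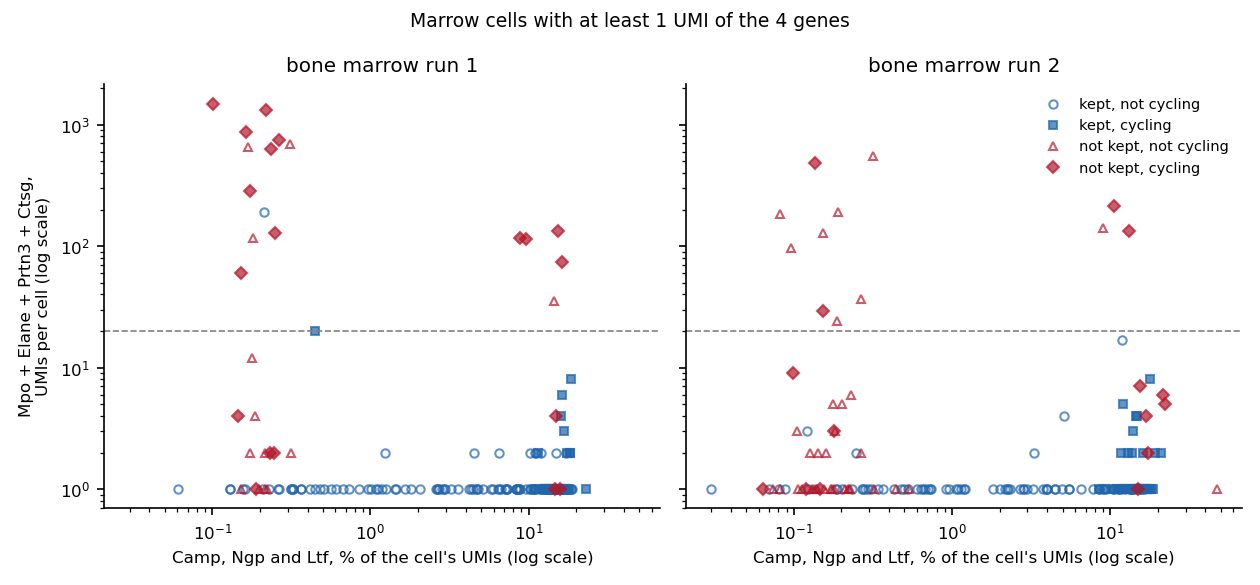
Every marrow cell with at least 1 UMI of Mpo, Elane, Prtn3 or Ctsg, by the sum of the 4 genes (vertical, log scale) and by the percent of the cell's UMIs from the secondary granule genes Camp, Ngp and Ltf (horizontal, log scale), for each run. Squares and diamonds are cycling cells, red symbols cells that were not kept, and the dashed line is at 20 UMIs. Above the line, 13 cells of run 1 and 9 of run 2 lie under 5% of secondary granule UMIs and 5 and 3 lie at or over it. Above the line, 2 cells of run 1 and 0 of run 2 were kept.

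The leading cell of run 1 had 778 UMIs of Elane, 321 of Mpo, 220 of Ctsg, 164 of Prtn3, 69 of Ms4a3 and 10 of Prss57 among 15890 UMIs, so that the 4 genes made up 9.33% of the cell. In run 2 the leading cell had 286 of Elane, 124 of Mpo, 103 of Prtn3 and 41 of Ctsg among 10688. The median protease-rich cell had 14359 UMIs in run 1 and 9545 in run 2, several times the median of a kept marrow cell (2678 and 2125). The study removed cells above the 99th percentile of genes as possible doublets. That limit was 1814 genes here, and the median protease-rich cell had 3399.5 genes in run 1 and 2618 in run 2. The sort gated out doublets by scatter and no doublet caller was run, so the part of droplets with more than 1 cell in this depth was not tested.

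Protease-rich cells were not of 1 kind. In 5 cells of run 1 and 3 of run 2, secondary granule genes made up at least 5% of UMIs. There the medians were 54 and 100 UMIs for Elane, 27 and 32 for Prtn3, 3 and 11 for Mpo, 1 and 3 for Ctsg and 13 and 16 for Ms4a3. A cell of run 1 departed from this, with 4 UMIs of Elane, 46 of Prtn3, 33 of Mpo and 33 of Ctsg, and a cell of run 2 had 33 of Mpo beside 31 of Prtn3. Fcnb, which encodes ficolin B, was present in 4 of the 5 and in all 3. In the 13 and 9 cells with fewer secondary granule UMIs, Mpo had medians of 146 and 45, Ctsg of 74 and 19, Elane of 247 and 8, Prtn3 of 72 and 29, and Ms4a3 of 17 and 4.

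Among the latter cells some carried genes of other lineages. In 3 of them in run 1 and 2 in run 2, Irf8, a transcription factor of monocyte and dendritic cell progenitors, had at least 5 UMIs. A cell of run 2 had 107 UMIs of Ctsg and 20 of Mpo with none of Elane or Prtn3, beside 595 of Mcpt8, a basophil protease whose gene is the neighbour of Ctsg, 14607 bases away. Neutrophil markers made up a median of 3.56% and 0.906% of the UMIs of a protease-rich cell, against 51.3% and 48.4% in kept cycling marrow cells. These markers include S100a8 and S100a9, on which kept cells were chosen, so this contrast follows in part from the rule. Monocyte markers made up 0.365% and 0.208% of their summed UMIs, with 8 and 6 of 8 detected, and basophil, mast cell or eosinophil markers 0.00606% and 0.605%, with 3 and 6 of 7 detected. The latter share of run 2 was carried by 1 cell at 11.8%, and the median cell had 0.00438%. Ly6g, the gene of the sorted surface protein, had a UMI in 7 of the 18 and 2 of the 12. The neutrophil marker share reached 41.9% and 35.2% in the highest of these cells. Although the cells came through a sort for CD11b and Ly6G, the median protease-rich cell thus carried few neutrophil markers, while some of them carried many.

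Pooled over the protease-rich cells of a run, Elane and Mpo made up most of the members' UMIs. Such shares weigh the richest cells most. In the 9 cells of run 2 with under 5% of secondary granule UMIs, the medians were 45 for Mpo and 8 for Elane. Elane took 43.3% and 37.5% of the UMIs of the 6 genes, Mpo 23.7% and 25.6%, Prtn3 15.1% and 19.5%, Ctsg 12.6% and 12.4%, Ms4a3 4.34% and 4.04%, and Prss57 0.902% and 0.946% (8091 and 2325 UMIs). As levels, Elane stood at 13289 and 6963 CPM and Prss57 at 277 and 176 CPM. Among the kept cycling cells, from which protease-rich cells were left out, Ms4a3 came first with 52% and 60.1% of the 6 genes' UMIs, Prss57 had 17.3% and 15.2%, Prtn3 10% and 17.7%, Elane 10% and 5.35%, Mpo 7.33% and 1.23%, and Ctsg 3.33% and 0.412% (150 and 243 UMIs). Since the classes were split on the sum of Mpo, Elane, Prtn3 and Ctsg, a higher share of these 4 in the first and of Ms4a3 and Prss57 in the second follows in part from the split.

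**Figure D3:**
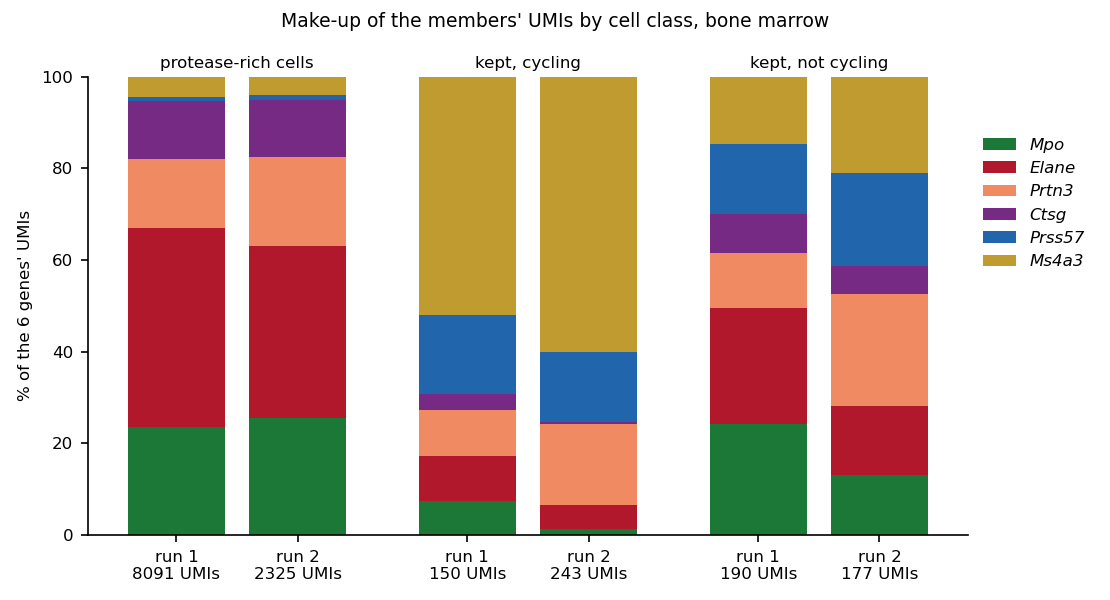
Share of each member in the UMIs of the 6 genes (percent, stacked to 100) in 3 classes of marrow cells of each run, the kept classes without protease-rich cells. The UMIs behind each bar are given under it. Elane and Mpo take most of the protease-rich bars (43.3% and 23.7% in run 1) and Ms4a3 most of the cycling bars (52% and 60.1%).

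Genes that make and store the proteases were looked at in the same cells. Srgn, which encodes serglycin, stood at 1804 and 1135 CPM in protease-rich cells, 29.9 and 28.8 CPM in kept cycling cells and 257 and 556 CPM in the other kept marrow cells. Calr, which encodes the chaperone calreticulin, stood at 890.5 and 879 CPM, 38.2 and 24.6 CPM, and 21.4 and 24.0 CPM in the same order. Srgn and Calr were thus highest in the protease-rich cells as a class, which is a description without a test, since these cells were chosen on the members. These were means over unlike cells. Srgn had 2 to 10 and 2 to 7 UMIs in the cells with at least 5% of secondary granule UMIs, against 106 and 38 in the cells richest in the members. Ctsc, the gene of cathepsin C, had 36 UMIs in 7 of the 18 cells of run 1 and 10 UMIs in 6 of the 12 cells of run 2 (136 and 79.9 CPM), against 4.11 to 12.8 CPM in the other classes. In run 1, cells with 11, 11 and 8 UMIs gave most of it, and the 7 cells richest in the members had 0 or 1 each.

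Regulators differed among these classes too. Cebpa stood at 90.9 and 72.0 CPM in protease-rich cells, 1.66 and 2.74 CPM in cycling cells and 17.1 and 9.57 CPM in other kept cells, and Myb at 224 and 144 CPM, 26.6 and 19.2 CPM, and 14.5 and 8.08 CPM. Cebpe, a factor of the step to secondary granules, stood at 1185 and 1303 CPM in cycling cells and 640 and 576 CPM in protease-rich cells. Camp, the cathelicidin gene of secondary granules, was at 77759 and 70486 CPM in cycling cells and 21811 and 21194 CPM in protease-rich cells. These protease-rich levels were means over unlike cells. The 5 and 3 cells with at least 5% of secondary granule UMIs, a share that counts Camp, held 5563 of 5756 and 2571 of 2651 Camp UMIs, and had 1192 and 1410 CPM of Cebpe against 368 and 167 CPM in the 13 and 9 others. The progenitor surface gene Cd34 had 36 UMIs in 7 of the 18 and 17 UMIs in 6 of the 12 protease-rich cells (136 CPM in each run), and 0 UMIs in the kept marrow cells outside them. In run 1, cells with 11 and 12 UMIs held most of it, and the 3 cells richest in the members had 0.

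In droplet data, RNA set free by some cells is counted in others, and lymphoid cells of the same library (at least 3 UMIs of Cd79a, Cd79b and Cd3e) show its level here. In marrow of run 2, 295 such cells held 3 UMIs of Mpo, or 4.89 CPM, with an interval of 1.01 to 14.3 CPM. The 2.93 CPM of kept neutrophils was not above it, and the part of free RNA in that level was not tested. Elane and Ctsg had 0 UMIs in these lymphoid cells. Taken as 3 UMIs, a count of 0 is 4.89 CPM, above their 4.50 and 1.35 CPM in kept cells, so a difference was not detectable at this depth. Prtn3 had 3.26 CPM, Prss57 1.63 CPM and Ms4a3 6.53 CPM, against 9.68, 8.22 and 20.6 CPM in kept cells. Run 1 marrow had only 6 lymphoid cells, too few for this comparison.

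In blood and spleen of run 2, Prtn3 and Prss57 were spread thinly over many cells. The 47 UMIs of Prtn3 in all blood cells lay in 46 cells and the 59 of Prss57 in 58, and in spleen 20 lay in 20 cells and 31 in 31. Lymphoid cells of the same spleen library stood at 0.385 CPM for Prtn3 and 0.769 CPM for Prss57, against 9.20 and 14.6 CPM in the kept cells. The 98 lymphoid cells of blood had 0 UMIs of any member. After each cell was thinned to 500 UMIs, a UMI of Prss57 was found in 0.563% of kept spleen cells (0.281% to 1.00%) and 0.0690% of lymphoid cells, and unthinned in 1.38% and 0.138%, at medians of 769 and 1469 UMIs per cell. As CPM, these genes in spleen thus lay above the background that lymphoid cells give. The intervals of the thinned shares overlapped, at 0.00175% to 0.384% for lymphoid cells with either gene and 0.177% to 0.805% for kept cells with Prtn3. In blood the 0 of 98 lymphoid cells allow a share of up to 3.69%, above the 0.768% of kept cells with Prss57.

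Fstl3, which overlaps Prss57 on the other strand, had 2.34 CPM in kept blood cells and 3.79 CPM in kept spleen cells of run 2. Plppr3, which overlaps Prtn3, had 0.876 and 0.541 CPM there. The opposite partners were thus counted less often than the members, and the part of misassigned reads was not tested.

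With any member counted, the thinned share of kept cells was 4.19% (3.12% to 5.48%) and 1.57% in marrow, 0.547% and 1.54% in blood and 0.441% and 1.02% in spleen. Without thinning it was 18.3% and 7.44%, 0.996% and 2.71%, and 2.65% and 2.35%. In run 1 the share in blood counts Prss57 alone and that in spleen Prss57 and Ms4a3 alone, since the other members are not listed there, so the run 1 shares are not compared between tissues.

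Kept neutrophils were next split by proliferation, since granulocyte precursors divide until the secondary granules are made. A cell was called cycling when at least 3 UMIs and at least 0.2% of its UMIs came from a list of 34 cell cycle genes, none of them a member. In marrow 66 and 183 kept cells were cycling (5.53% and 5.40%), in spleen 19 and 16 and in blood 8 and 3. Cycling cells were deeper, with medians of 9485.5 and 7648 UMIs in marrow and 6448 and 6872.5 in spleen, against 2528, 2052, 1324.5 and 767 in the other cells, and levels below are per 1e6 UMIs (CPM).

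Ms4a3 had the highest level of the 6 members in cycling marrow cells. It stood at 129 CPM in cycling and 10.4 CPM in other kept cells of marrow in run 1, at 99.96 and 4.99 CPM in marrow of run 2, at 23.7 and 3.14 CPM in spleen of run 1 (3 UMIs in cycling cells) and at 27.6 and 0.575 CPM in spleen of run 2 (3 UMIs). Cycling cells were higher in 4 of 4 libraries. Marrow and spleen of a run come from the same mice, so these are 2 pools of mice, which the test treats as 4 independent libraries. The log2 difference was 3.74 (SE 0.26, edgeR FDR 2.65e-08), in a test that called 23.6% of 5959 genes higher and 25.2% lower in cycling cells. Ms4a3 passed the filter on low counts of this test only through the cycling cells and so had to differ. In marrow of run 2 the level in other kept cells did not exceed the 6.53 CPM of lymphoid cells.

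Prss57 stood at 43.0 and 8.94 CPM in marrow of run 1, 25.3 and 4.85 CPM in run 2 and 31.6 and 7.45 CPM in spleen of run 1, whereas in spleen of run 2 cycling cells had 0 UMIs and other cells 15.5 CPM. Its log2 difference was 1.80 (SE 0.37, edgeR FDR 0.00101), higher in 3 of 4 libraries. Prtn3 stood at 29.8 and 15.3 CPM and at 29.4 and 5.79 CPM in marrow (the 15.3 CPM of run 1 was 6.65 CPM without 1 protease-rich cell), and at 27.6 (3 UMIs) and 8.05 CPM in spleen of run 2, with a log2 difference of 1.52 (SE 0.35, edgeR FDR 0.00255), higher in 3 of the 3 libraries that list it. Mpo, Elane and Ctsg did not pass the filter on low counts. Without bone marrow of run 2, edgeR's FDR rose to 0.0765 for Prss57 and 0.197 for Prtn3. Ms4a3 alone remained called, which lends it no support, since it passed the filter only through the cycling cells.

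**Figure D4:**
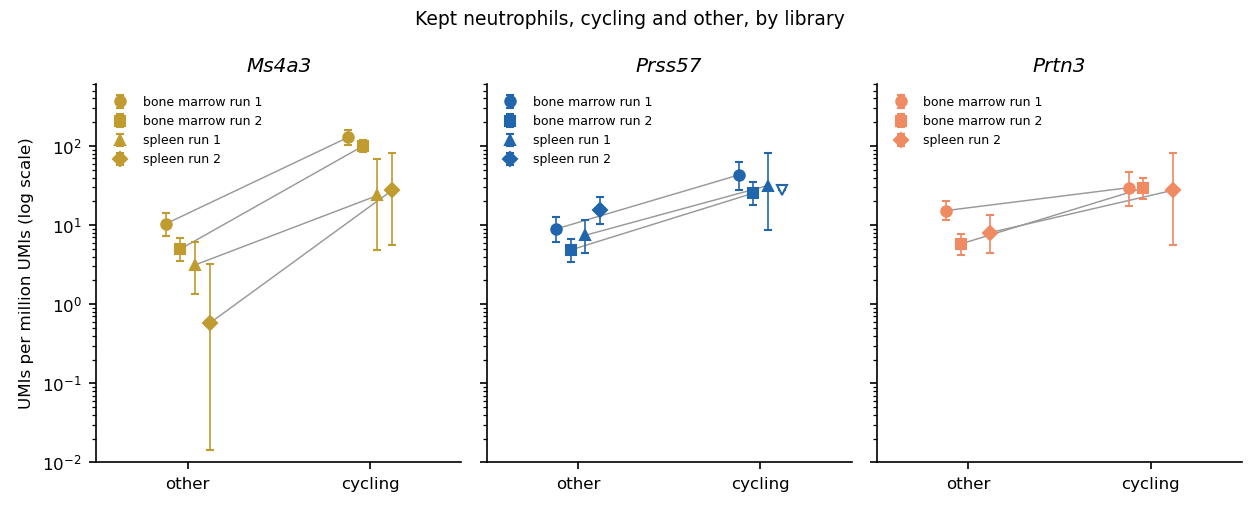
Levels of Ms4a3, Prss57 and Prtn3 (CPM, log scale, exact 95% Poisson intervals) in cycling and other kept neutrophils, with a line joining the classes of a library. The open triangle is the count of 0 for Prss57 in cycling spleen cells of run 2, drawn at 3 UMIs. Ms4a3 is higher in cycling cells in each of the 4 libraries (129 against 10.4 CPM in marrow of run 1), while the spleen points of cycling cells rest on 3 or 4 UMIs.

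The kept cells that were not cycling were ordered by secondary granule genes, as granule-high (at least 5% of UMIs from Camp, Ngp and Ltf), intermediate and granule-low (under 1%). These are ranges of a score and not cell types. In marrow of run 2, Ms4a3 stood at 99.96 CPM in cycling cells and then at 9.56, 1.10 and 2.03 CPM along this order, and Prtn3 went from 29.4 to 3.51, 5.48 and 8.95 CPM. Prss57 went from 25.3 to 3.19, 4.93 and 6.91 CPM. In granule-low cells, which were 3604 of the 3647 kept cells in blood and 1886 of the 1955 in spleen of run 2, Prss57 stood at 16.7 CPM in blood and 15.8 CPM in spleen, and Prtn3 at 13.7 and 8.83 CPM. These are descriptions of 1 library each, with no test.

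In marrow of run 1 the granule-low cells had the highest summed level of the 6 members, 349 CPM, but 1 protease-rich cell gave 93 of the 101 UMIs of Elane. Without that cell the summed level was 52.6 CPM, and Elane was at 12.0 CPM in place of 150 CPM. Mpo and Elane stood at 11.2 and 13.5 CPM in granule-high cells of this library and at 2.55 and 6.06 CPM in those of run 2.

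Genes around the members in the pathway were compared between marrow and blood, where 11.3% of all genes were called higher and 12% lower. Of 9 processing and packaging genes tested, none was higher and Srgn was lower in marrow (log2 -2.46, SE 0.27, edgeR FDR 0.00196). Of 9 other azurophil or lysosomal genes, 4 were higher, led by the lysozyme gene Lyz2 (log2 2.43, SE 0.49), and 2 were lower. Of 3 protease inhibitors, Serpinb1a (log2 3.29) and Serpinb6a (log2 1.55) were higher and Slpi (log2 -1.09), which encodes a secreted inhibitor of elastase, was lower. Of 7 factors of early granulopoiesis, Myb (log2 4.50) and Cebpe (log2 3.08) were higher. All 4 secondary granule genes tested were higher, among them Ngp (log2 3.99) and Camp (log2 3.59).

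Of 6 gelatinase granule and maturity genes, 2 were higher and 3 lower in marrow, with Il1b at log2 -4.43. Of 7 progenitor genes, 5 were higher, led by Fcnb (log2 5.37) and Chil3 (log2 4.16), and Ctla2a was lower (log2 -6.27). The medians of these lists lay between -0.68 for the maturity list and 3.61 for the secondary granule list, against 0.02 over all genes. Between marrow and spleen, where 0.42% of all genes were called higher and 2.39% lower, Srgn (log2 -1.86) was the only processing gene called, and no secondary granule gene was.

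In cycling against other neutrophils, where 23.6% of all genes were called higher and 25.2% lower, genes of each of these lists were called. Camp (log2 1.76) and Ngp (log2 1.43) were the 2 of 4 secondary granule genes called, both higher, and all 6 gelatinase granule and maturity genes were lower, with Mmp8 at log2 -4.31. Of 6 early factors tested, 4 were higher, among them Cebpe (log2 1.89) and Cbfb (log2 1.47), the partner of RUNX proteins, and 2 were lower, among them Cebpa (log2 -2.63). Of the processing genes, Srgn (log2 -4.52) and Lyst (log2 -1.35) were lower and the chaperone gene Canx (log2 0.85) was higher. The inhibitor Serpinb1a (log2 1.05) was higher and Slpi (log2 -2.80) lower.

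Over 18 groups of healthy cells (a library and a stage, with at least 20 cells each), the summed level of the 6 members was compared with that of 4916 other genes, on log2(CPM + 10). The most alike by Pearson correlation were Polr2m (r = 0.828), Rab24 (0.818), Nudt21 (0.809), Tpi1, Usp1, Mrpl42, Ddx39b, Npm3, Eny2 and Prdx1 (0.765). Groups of a library share its depth and its mice, so these are descriptions with no test. In blood and spleen of run 1 the sum counts Prss57 alone, or Prss57 and Ms4a3, since the other members are not listed there and entered at 0. Without the protease-rich cells, 6 of these 10 genes stayed among the 10 most alike, with Nudt21 first (r = 0.908).

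In the inflammation library the members had few UMIs in the cells that the authors' reference mapping called granulocytes (509 from healthy blood, 814 from K/BxN blood, 2857 from K/BxN joint, 380 from IL-1β lung and 292 from IL-1β peritoneum). Mpo, Elane and Ctsg had 0 UMIs among 16375857 in all 5 conditions, with an exact upper limit of 0.225 CPM. Protease-rich cells were not seen in any condition. Ms4a3 had 2 UMIs, both in IL-1β peritoneum.

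Prtn3 was counted 2 times in healthy blood (1.78 CPM), 6 times in K/BxN blood (2.23 CPM), 19 times in joint (1.85 CPM), 1 time in lung (0.757 CPM) and 0 times in peritoneum, 28 UMIs or 1.71 CPM in all (1.14 to 2.47). Prss57 was counted 3 times in healthy blood (2.67 CPM), 18 times in K/BxN blood (6.68 CPM), 31 times in joint (3.01 CPM) and 1 time each in lung (0.757 CPM) and peritoneum (1.06 CPM), 54 UMIs or 3.30 CPM in all (2.48 to 4.30). Prss57 had more UMIs than Prtn3 in K/BxN blood and joint, but the counting intervals of the pair overlapped there, and the counts of lung and peritoneum are too low to rank.

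With a single pool per condition there is no test, and a gene was called past 2-fold when a pair of conditions held at least 10 UMIs. Against healthy blood of this library, Prss57 in K/BxN blood was past that limit with a ratio of 2.51, but with a counting interval of 0.732 to 13.3, where 1.34% of genes were past it upward and 15% downward. In joint, the ratios of Prss57 (1.13, 0.352 to 5.77) and Prtn3 (1.04, 0.250 to 9.19) were not past it, where 7.64% of genes were higher and 31.2% lower. No member had enough UMIs in lung, where 10.8% of genes were higher and 51.5% lower, or in peritoneum, where it was 9.87% and 53.9%. The conditions share their control, and differences at these counts were not detectable.

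**Figure D5:**
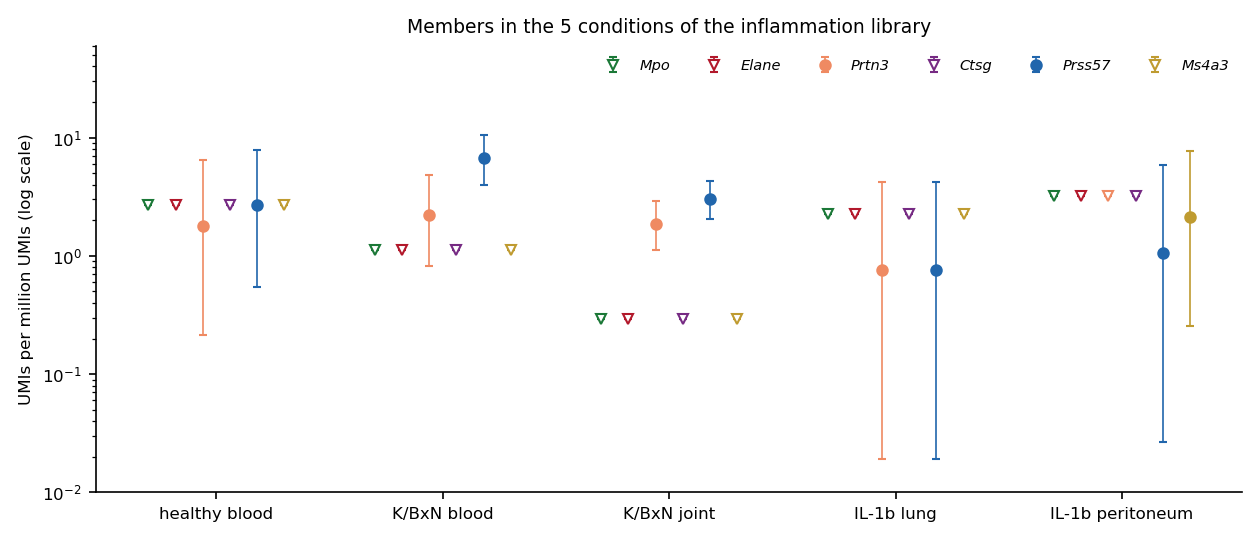
Levels of the 6 members (CPM, log scale, exact 95% Poisson intervals) in the 5 conditions of the inflammation library. Open triangles are counts of 0, drawn at 3 UMIs for that condition. Prss57 and Prtn3 are the members with points in most conditions, highest for Prss57 in K/BxN blood (6.68 CPM), and their intervals overlap between each condition and healthy blood.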

How the data were processed

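The deposited files are counts of UMIs for each gene and each cell, made by the authors with Cell Ranger on mm10. No filter of theirs on cell type had been applied to them, as the lymphoid cells they hold show. With the inflammation library came a deposited table of cells, whose hashtag condition and ImmGen reference class were used to assign cells (class starting GN). No other columns of that table entered a value. Libraries held 1968514 to 16390439 UMIs. In run 1, an unlisted gene was entered as 0.

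The 6 genes, the cell limits and the gene lists were chosen with earlier results of these data known. Kept cells were summed per library. Tissues were tested with edgeR 4.0.16 in R 4.3.3 (quasi-likelihood test, TMM factors, its filter on low counts, all 6 healthy libraries in 1 fit, run as a block, Benjamini-Hochberg FDR 0.05), and cycling against other cells in marrow and spleen with the library as a block, without the cycling list. Where the local trend of the dispersion could not be fitted, a moving average was used. The quasi-likelihood test gives no standard error, so SE is the absolute log2 difference divided by the square root of its F statistic. By the methods of the study, the tissues of a block share their mice. Deviations from tissue means correlated between tissues of a run at r = 0.606, 0.549 and 0.657 over 7617 genes. With 2 runs these deviations hold all that differs between runs, such as age, depth and the genes listed, and not the mice alone. The fits were tested on simulated data. Alternatives were DESeq2 1.42.0 (size factors and Wald test), no filter, no block, each library left out, other cell limits, unlisted genes at 10 UMIs, and no protease-rich cells (the last 2 added after seeing the data). Doublets were not called and free RNA was not removed. Nothing says that cells of a pool can be assigned to a mouse, so p-values of the tissue tests measure the spread between pools. In the cycling test, marrow and spleen of a run share their mice but entered as separate libraries. Its p-values therefore do not measure the spread between independent pools.

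Named genes were the members, their annotated neighbours, up to 3 called genes of each list with the largest change, and the 10 genes most alike. A gene that this rule names is not reported here. In the descriptions of cell classes, further genes of these lists (Srgn, Calr, Ctsc, Cebpa, Myb, Cebpe, Camp and Cd34) were named after their values were seen. Python 3.11.15 was used for counts, intervals and promoters. Promoters came from a RefSeq table that held 5 of the 6 members. Positions came from the GENCODE annotation of the mm10 genome.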

Additional observations from a re-analysis of the deposited data

Results flagged for a closer look

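UMIs of every member were found outside the kept marrow cells, in droplets left out of the main comparisons, and this is why these values are listed. In run 1 the removed cells held 1870 UMIs of Mpo, 3418 of Elane, 1212 of Prtn3, 998 of Ctsg, 75 of Prss57 and 351 of Ms4a3. In run 2 they held 607 of Mpo, 888 of Elane, 508 of Prtn3, 296 of Ctsg, 29 of Prss57 and 127 of Ms4a3. Cells removed from blood and spleen of run 2 held 2 and 3 UMIs of the 4 genes Mpo, Elane, Prtn3 and Ctsg together.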

How the results depend on the processing

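Members called higher in marrow than blood numbered 2, with 857 genes higher in all, and 1 under the DESeq2 Wald test (533 genes), 3 with no filter on low counts (808), 2 without the S100 floor (65), 4 if Nkg7 was not used (867), 0 with all deposited cells (0), 1 under the cell quality filter (719), 3 with unlisted genes at 10 UMIs (1094) and 1 to 4 when a library was left out (92 to 1348). Members called between marrow and spleen numbered 2 (32 genes higher), and 3 with no filter on low counts (48), 0 without the S100 floor (0), 4 if Nkg7 was not used (49), 0 with all deposited cells (0), 0 under the quality filter (0), 1 without cycling cells (1), 4 with unlisted genes at 10 UMIs (308), 1 without protease-rich cells (31) and 1 to 4 when a library was left out (4 to 347). DESeq2's Wald test gave no adjusted p for the members there (log2 3.18 for Ms4a3). Ms4a3 was among the calls lost against spleen, also with all deposited cells (FDR 0.188) and without the replicate block (FDR 0.349). Between spleen and blood it was 0 (4 genes higher), and 0 to 1 when a library was left out (0 to 429), and in cycling cells 3 (1406), 4 if Nkg7 was not used (1453, with Elane at FDR 0.00939), and 1 to 3 when a library was left out (665 to 1571). Without the replicate block, 1 member was called between marrow and blood (Ms4a3), 0 between marrow and spleen and 2 in cycling cells (1036), where Prtn3 was lost, and genes called fell from 857 higher and 913 lower to 37 and 27 for marrow against blood.

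The sign of Prss57 was not stable. For marrow against blood its log2 difference was -0.03, and 0.11 under DESeq2's Wald test, 0.014 without the replicate block, 0.19 without the S100 floor, 0.36 if Nkg7 was not used, 0.70 with all deposited cells, 0.083 with unlisted genes at 10 UMIs and -0.58 to 0.71 when a library was left out, positive without blood of run 2 (0.71) or marrow of run 2 (0.70). For spleen against blood it was -0.16, and -0.61 to 0.57 when a library was left out (0.03 without spleen of run 1, 0.57 without blood of run 2). For marrow against spleen it was 0.13, and -0.50 to 0.78 when a library was left out (-0.50 without marrow of run 1, -0.13 without spleen of run 1), -0.13 under the quality filter and -0.44 without cycling cells. Leaving out a library moved Prtn3 between -0.10 (without marrow of run 1) and 8.60 for marrow against blood and between -7.77 and 6.57 (without blood of run 2) for spleen against blood. The cause of these changes was not tested.

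Genes called higher ranged from 0 to 1348 for marrow against blood, 0 to 429 for spleen against blood, 0 to 347 for marrow against spleen and 665 to 1657 in cycling cells, and genes called lower from 0 to 1289, 0 to 226, 0 to 570 and 776 to 2035. Shares of cells with a member rose without thinning to 18.3% and 7.44% in marrow, 2.65% and 2.35% in spleen, 2.71% in blood of run 2, 2.95% in K/BxN blood and 1.51% in joint. With limits of 3% and 0.5% on secondary granule genes, the summed level in granule-low marrow cells of run 1 was 488 CPM in place of 349, both set by 1 protease-rich cell (52.6 CPM without it at the main limits). Counts of 0 to 56 UMIs per member in kept cells outside marrow limit what could be seen.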
